A study of Mus musculus with 8 samples.

Results

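The Zfp-named zinc finger genes described here are those whose mouse symbol is Zfp followed by a number and at most 1 letter, without pseudogenes, that had at least 80 reads summed over 8 libraries of mouse quadriceps. Of 54532 genes in the count tables, 392 carry such a name and are not pseudogenes, and 213 of these met the read minimum. A further 139 had 1 to 79 reads and 40 had none. All 213 are annotated as protein coding. Membership rests on name and read number, not on a difference between genotypes.

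Quadriceps, a thigh muscle made mostly of fast fibres, was taken from chow-fed mice aged 3 months. Both groups carried floxed Gpcpd1 on both alleles. The 4 control libraries (Control, Gpcpd1 Flox/Flox) came from mice negative for Mck Cre, and the 4 knockout libraries (MckCre Gpcpd1) from mice positive for it, so that Cre and the loss of Gpcpd1 change together and cannot be told apart. Mck is the muscle creatine kinase promoter, which drives Cre in muscle fibres and leaves the other cells of the tissue with an intact gene. Gpcpd1 encodes an enzyme that splits glycerophosphocholine. Sex, litter and batch are not stated, and no label says that each library came from a different mouse, so the tests set each difference against the spread among these libraries, which may be partly technical.

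C2H2 zinc finger proteins bind DNA, and some bind RNA, through repeated fingers in which a pair of cysteines and a pair of histidines hold a zinc ion. A large class carries, ahead of its finger array, a KRAB domain, which recruits the corepressor Trim28 and through it the histone methyltransferase Setdb1, HP1 proteins and the NuRD complex. KRAB genes lie in tandem clusters that expanded by local duplication, and many of them silence transposable elements. Members without a KRAB domain are more varied, with BTB proteins, RNA-binding proteins, a ubiquitin ligase and ribosome assembly factors among them.

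A finger as it is encoded is shown from Zfp773, the member with the largest decrease. The stretch is coding exon sequence, in exon 4 of 4 of the transcript read (GRCm38, chr7:7132723-7132785, minus strand), and capitals mark the codons of the zinc-binding cysteines and histidines.

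Zfp773 finger 2, residues 271 to 291: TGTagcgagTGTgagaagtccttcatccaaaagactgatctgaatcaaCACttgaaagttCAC

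The promoters shown next belong to the 5 members lower in the knockout that lie within the first 12 members of chromosome 7. Each is the 250 bases before the start of the transcript, from RefSeq (GRCm38.p6), and capitals mark CG dinucleotides.

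Zfp628 (chr7:4914967-4915216, plus strand): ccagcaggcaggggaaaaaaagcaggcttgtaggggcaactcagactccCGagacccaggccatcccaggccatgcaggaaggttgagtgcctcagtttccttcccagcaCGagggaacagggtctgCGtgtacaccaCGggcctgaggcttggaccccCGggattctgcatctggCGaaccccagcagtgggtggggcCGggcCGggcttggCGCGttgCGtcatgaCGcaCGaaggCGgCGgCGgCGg
Zfp580 (chr7:5051282-5051531, plus strand): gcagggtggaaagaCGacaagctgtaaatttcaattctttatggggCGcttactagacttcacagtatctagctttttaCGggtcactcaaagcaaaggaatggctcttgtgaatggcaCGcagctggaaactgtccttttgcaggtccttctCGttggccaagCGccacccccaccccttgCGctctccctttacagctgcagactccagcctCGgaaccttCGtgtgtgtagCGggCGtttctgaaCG
Zfp787 (chr7:6155966-6156215, minus strand): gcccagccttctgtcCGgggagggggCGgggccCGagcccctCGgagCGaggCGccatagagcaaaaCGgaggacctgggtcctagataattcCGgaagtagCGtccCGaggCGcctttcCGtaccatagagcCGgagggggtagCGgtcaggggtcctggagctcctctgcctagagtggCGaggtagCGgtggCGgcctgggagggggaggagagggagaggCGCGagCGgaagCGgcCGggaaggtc
Zfp444 (chr7:6172263-6172512, plus strand): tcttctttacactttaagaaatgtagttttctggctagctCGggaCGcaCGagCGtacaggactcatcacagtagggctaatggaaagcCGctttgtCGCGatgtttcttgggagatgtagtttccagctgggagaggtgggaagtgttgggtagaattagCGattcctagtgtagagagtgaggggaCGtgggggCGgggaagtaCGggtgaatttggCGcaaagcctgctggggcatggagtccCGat
Zfp773 (chr7:7136756-7137005, minus strand): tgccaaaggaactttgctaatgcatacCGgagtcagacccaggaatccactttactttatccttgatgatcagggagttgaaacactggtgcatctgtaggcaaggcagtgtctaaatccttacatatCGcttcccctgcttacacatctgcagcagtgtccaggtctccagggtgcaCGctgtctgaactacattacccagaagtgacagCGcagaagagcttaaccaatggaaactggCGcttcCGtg

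These 5 windows held 17, 12, 22, 13 and 6 CG dinucleotides in the order printed, against a median of 6 over all 32851 RefSeq promoters. RefSeq promoters were matched for 171 of the 213 members, 209 promoters in all, with a median of 13 CG dinucleotides. KRAB members had a median of 9 and members without a KRAB match a median of 18. The letters GGGCGG, on either strand, were found in 47.8% of member promoters and 32.7% of all promoters, CCAAT in 42.6% and 33.8%, TATAAA in 5.74% and 12.4%, and the E-box letters CANNTG in 56.9% and 66.2%. Among the 5 printed promoters, Zfp787 and Zfp444 held GGGCGG, Zfp773 held CCAAT, and none held TATAAA. A match describes the letters of the window and nothing about the factors that bind there.

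Libraries held 4404116 to 5405999 reads in genes, and members took 0.377% to 0.455% of them. Gpcpd1, the targeted gene (chr2:132529082-132587729), measured 134 to 158 CPM (read counts divided by the library size scaled with trimmed mean of M values, then brought to the usual common total) in the controls and 30.2 to 38.4 CPM in the knockouts, a log2 difference of -2.09 (SE 0.10, edgeR adjusted p = 2.15e-13), with an exact two-sided permutation p of 0.0286, the smallest that 4 against 4 allows. Whether its 3′ reads lie in the deleted exons is not stated. Muscle fibre markers summed to 136919 to 150952 CPM in controls and 147944 to 151142 CPM in knockouts, and of 8 tested fibre markers 2 were higher and 1 lower. Macrophage markers summed to 70.8 to 117 CPM in controls and 52.5 to 82.1 CPM in knockouts, with 3 of 7 tested genes lower. Markers of fibro-adipogenic progenitors, the connective tissue cells of muscle, summed to 1021 to 1238 and 751 to 1051 CPM, with 1 of 7 lower. Median log2 differences of the tested markers were 0.24 for fibres, -0.59 for macrophages and -0.26 for progenitors. Of all tested genes, 8.87% were higher and 6.8% lower at an edgeR adjusted p under 0.05. The fibre, macrophage and progenitor sums overlapped between the groups. So did the summed markers of endothelial cells, adipocytes, satellite cells, Schwann cells, blood and lymphocytes, and the B cell gene Cd79a was at 0. The part of these cell types in the results on zinc finger genes was not tested, and in whole muscle fewer cells of a type and less RNA per cell cannot be told apart.

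Zfp-named genes were expressed at low levels. Mean CPM over the 8 libraries ran from 2.06 to 827 with a median of 7.40, and 42 members reached 20 CPM while 68 stayed under 5 CPM. Because QuantSeq reads come from transcript 3′ ends, read number does not scale with length by design, and levels are compared between genes on the CPM scale. Zfp106, an RNA-binding protein whose loss in mice leads to degeneration of motor neurons and muscle, alone gave 20.1% of all member reads. Next came Zfp91 at 219 CPM, an E3 ubiquitin ligase, then Zfp768 at 199 CPM, Zfp651 at 124 CPM, Zfp652 at 98.2 CPM and Zfp771 at 76.1 CPM. The KRAB member of highest level was Zfp445, which acts with Zfp57 in keeping genomic imprints, at 58.2 CPM. Around the read minimum, Zfp827 with 81 reads and Zfp449 with 84 were the lowest members, at 1.82 and 2.09 CPM in controls and 2.3 and 2.13 CPM in knockouts. Just under it, Zfp235 with 78 reads measured 2.32 and 1.66 CPM and Zfp422 with 76 reads 1.90 and 1.95 CPM.

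Of the 212 members that entered the test, 21 differed between genotypes at an edgeR adjusted p under 0.05, called below, 6 of them higher in the knockout and 15 lower. That is 9.91% of members, beside 15.7% of all 10691 tested genes. Higher calls made up 2.83% of members and 8.87% of all tested genes, and lower calls 7.08% of members and 6.8% of all tested genes. Without matching for level, the share of members called was below that of all tested genes, and the share called lower was close to it. Among the 106 members between the quartiles of member level, 4.13 to 17.1 CPM, 7 were called (6.60%), beside 10.4% of the 3967 tested genes in that range. By direction, 4.72% of these members were called lower and 1.89% higher, beside 3.48% and 6.93% of the tested genes in that range. Member log2 differences ran from -1.50 to 1.13 with a median of -0.03, against 0.01 for all tested genes, with 100 members above 0 and 112 below. Only Zfp773 and Zfp612 changed by 2-fold or more. Control and knockout CPM did not overlap for 32 members (15.1%), beside 19.2% of all tested genes, and for 19 of the 21 called members. Scaled by library totals alone, 4 members were called higher and 18 lower. All tested genes moved the same way, with 829 higher and 905 lower, against 948 and 727 with the trimmed mean scaling. The member count of higher calls was 2 with DESeq2 and 3 without control library 4, knockout library 3 or knockout library 4. In either direction DESeq2 called 5.66% of members, beside 13.1% of all tested genes.

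**Figure D1:**
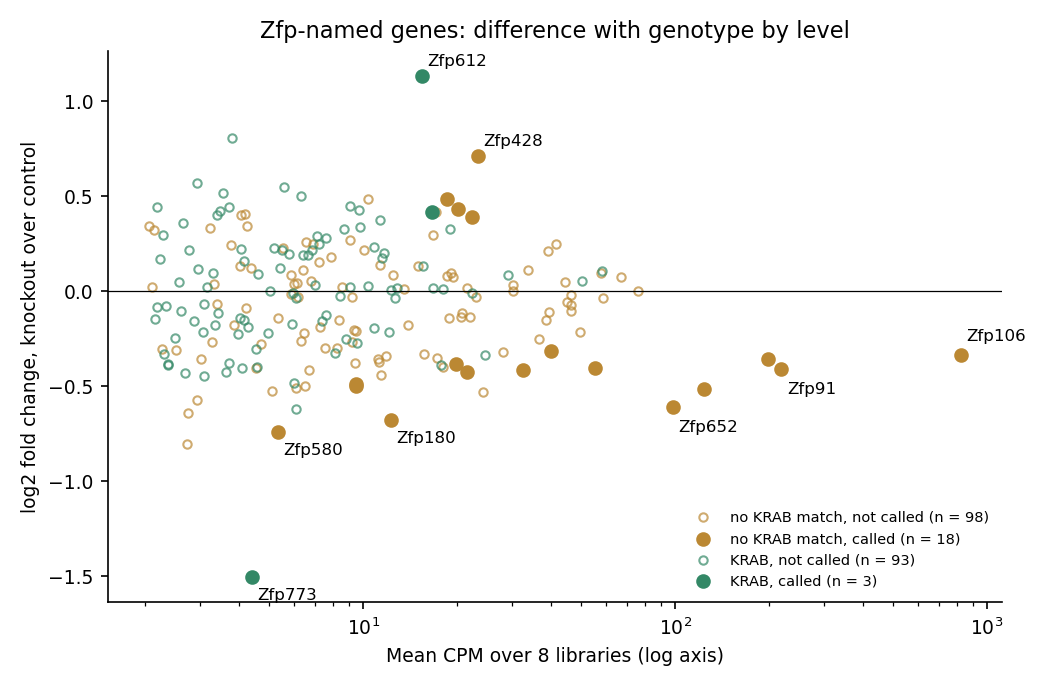
Each point is 1 of the 212 tested members, by mean CPM over 8 libraries (log axis) and log2 fold change of knockout over control; filled points are called and colours give the KRAB class. Zfp612 and Zfp773 lie farthest from 0, and the 5 members of highest level are all called lower.

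The share called rose with level. At 20 CPM or more, 12 of 42 tested members were called (28.6%, beside 23.3% of all tested genes at that level), 3 higher and 9 lower. From 5 to 20 CPM it was 8 of 103 (7.77% beside 11.6%), and under 5 CPM 1 of 67 (1.49% beside 7.89%). Lower calls at 20 CPM or more made up 21.4% of members and 11.9% of all tested genes, and higher calls 7.14% and 11.4%. From 5 to 20 CPM lower calls made up 4.85% and 4.19%, and higher calls 2.91% and 7.40%. Under 5 CPM lower calls made up 1.49% and 1.42%. These differences were not tested. The single call under 5 CPM was Zfp773. The median standard error was 0.11 for members at 20 CPM or more and 0.29 for those under 5 CPM, so that a difference of a given size was harder to detect in the lower members.

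The 5 members of highest level, none with a KRAB match, were all called lower in the knockout. Zfp106 (ENSMUSG00000027288, chr2:120506820-120563843) measured 934, 897, 903 and 955 CPM in the controls and 722, 728, 717 and 760 CPM in the knockouts. Every knockout library lay below every control library, with a log2 difference of -0.33 (SE 0.08, edgeR adjusted p = 0.00361). For Zfp91 (ENSMUSG00000024695, chr19:12763660-12796126), controls gave 266, 236, 252 and 248 CPM and knockouts 191, 192, 190 and 179 CPM. The groups were again apart, by -0.41 on the log2 scale (SE 0.08, edgeR adjusted p = 0.000646). Cntf, a neurotrophic factor gene that overlaps Zfp91 on the same strand, had 5 reads in all 8 libraries. Zfp768, at 223 ± 22.3 CPM in controls and 175 ± 2.56 CPM in knockouts (SD, n = 4), differed by -0.35 (SE 0.08), and its groups did not overlap.

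Zfp652 and Zfp651 fell further. Zfp652 (ENSMUSG00000075595, chr11:95712673-95835115), a sequence-specific repressor that works with Cbfa2t3, measured 116, 117, 117 and 125 CPM in controls and 84.9, 72.6, 84.9 and 68.8 CPM in knockouts. Its groups did not overlap, with a log2 difference of -0.61 (SE 0.09, edgeR adjusted p = 3.4e-05). Zfp651 (ENSMUSG00000013419, chr9:121759330-121771742), a BTB zinc finger protein also known as Zbtb47, gave 152, 159, 133 and 138 CPM in controls and 109, 90.7, 102 and 106 CPM in knockouts. All knockout values lay below the lowest control value, with a log2 difference of -0.51 (SE 0.09, edgeR adjusted p = 0.00022). Zfp771, the sixth in level, showed no such difference: it stood at 76.1 ± 12.1 CPM in controls and 76.1 ± 12.3 CPM in knockouts (SD, n = 4), with a log2 difference of 0.00 (SE 0.12). Abi3 and B130006D01Rik, which overlap Zfp652, had group means of 2.42 to 3.10 CPM and were not called.

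The largest decrease was in a KRAB gene of low level. Zfp773 (ENSMUSG00000063535, chr7:7127073-7136755), whose protein of 471 residues carries 8 fingers, measured 5.58, 6.46, 8.58 and 5.44 CPM in controls and 2.71, 2.66, 1.11 and 2.76 CPM in knockouts. No knockout library reached the lowest control, and the log2 difference was -1.50 (SE 0.28, edgeR adjusted p = 0.000418). These values rest on 174 reads in all, and the last 300 bases of its transcripts match 2 other annotated genes at 95% identity or more, so that reads could be shared with them. Zfp580 (ENSMUSG00000055633, chr7:5051538-5053723), with 3 fingers, gave 6.22, 7.47, 6.63 and 6.28 CPM in controls and 4.38, 4.94, 2.59 and 4.04 CPM in knockouts. Its groups did not overlap, with a log2 difference of -0.74 (SE 0.23, edgeR adjusted p = 0.0275). On the opposite strand it overlaps Gm15510, an antisense gene that was also lower, at 20.6 CPM in controls and 13.6 CPM in knockouts (log2 -0.60, SE 0.18). The strand setting of the counting is not given in the sources used here, so reads of this pair cannot be told apart. Zfp180 (ENSMUSG00000057101, chr7:24081924-24107713), with 12 fingers and no KRAB match, measured 15.2, 15.5, 15.0 and 14.6 CPM in controls and 8.55, 10.6, 8.14 and 10.4 CPM in knockouts. The controls were close together, the knockouts all lower, and the log2 difference was -0.68 (SE 0.15, edgeR adjusted p = 0.00265).

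The other 7 members called lower differed by -0.31 to -0.50 on the log2 scale. Zfp131, a BTB zinc finger protein, was at 37.3 ± 1.97 CPM in controls and 27.9 ± 1.17 CPM in knockouts (SD, n = 4; log2 -0.42), and its 3′ end matches 53 other annotated genes. Zfp358 stood at 63.2 ± 6.03 and 47.9 ± 5.95 CPM (log2 -0.40), with control library 4 below knockout library 1. Zfp467, known for favouring adipocyte over osteoblast differentiation, was at 24.7 ± 3.20 and 18.4 ± 1.72 CPM (log2 -0.42), and its groups also overlapped. In the remaining 4 the groups did not overlap. Mean levels in controls and knockouts were 44.5 and 35.8 CPM for Zfp787 and 22.4 and 17.2 CPM for Zfp512b (log2 -0.31 and -0.38). They were 11.1 and 7.86 CPM for Zfp444 and 11.1 and 7.89 CPM for Zfp628 (log2 -0.50 and -0.49). Zfp512b overlaps Uckl1 on its own strand, and on the other strand Prpf6 and Uckl1os, of which Uckl1os was higher in the knockout (log2 0.60, SE 0.09), opposite in direction to Zfp512b.

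Of the 6 members called higher, Zfp612 changed most. Zfp612 (ENSMUSG00000044676, chr8:110079746-110092741), a KRAB protein with 16 fingers, measured 11.2, 7.47, 10.5 and 9.63 CPM in controls and 19.6, 23.4, 22.0 and 19.97 CPM in knockouts. The lowest knockout library lay well above the highest control, with a log2 difference of 1.13 (SE 0.15, edgeR adjusted p = 7.42e-06), the smallest adjusted p of any member. Gm17720, which overlaps it on the opposite strand, had no read. Zfp428 (ENSMUSG00000064264, chr7:24507006-24515682), a short protein of 189 residues with 1 finger match, gave 17.2, 22.4, 14.2 and 17.0 CPM in controls and 27.9, 27.4, 28.3 and 32.5 CPM in knockouts. Its groups did not overlap either, with a log2 difference of 0.71 (SE 0.13, edgeR adjusted p = 0.000541).

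The other 4 rose by less. Zfp322a (ENSMUSG00000046351, chr13:23353103-23369208), which helps to keep embryonic stem cells pluripotent, measured 16.7, 19.98, 17.2 and 14.6 CPM in controls and 22.1, 23.4, 25.3 and 21.7 CPM in knockouts. The groups were apart, with a log2 difference of 0.43 (SE 0.13, edgeR adjusted p = 0.0229). Zfp770 (ENSMUSG00000040321, chr2:114193461-114201469) gave 16.5, 12.3, 16.6 and 16.3 CPM in controls and 16.9, 22.1, 21.8 and 25.5 CPM in knockouts. The lowest knockout stood just above the highest control, and the log2 difference was 0.48 (SE 0.15, edgeR adjusted p = 0.0246). Zfp687, part of a chromatin complex with Zmynd8 and Zfp592, was at 19.4 ± 1.99 and 25.4 ± 1.53 CPM (log2 0.39), and the KRAB gene Zfp641 at 14.2 ± 1.97 and 19.0 ± 2.12 CPM (SD, n = 4; log2 0.42). Neither gene had overlapping groups.

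**Figure D2:**
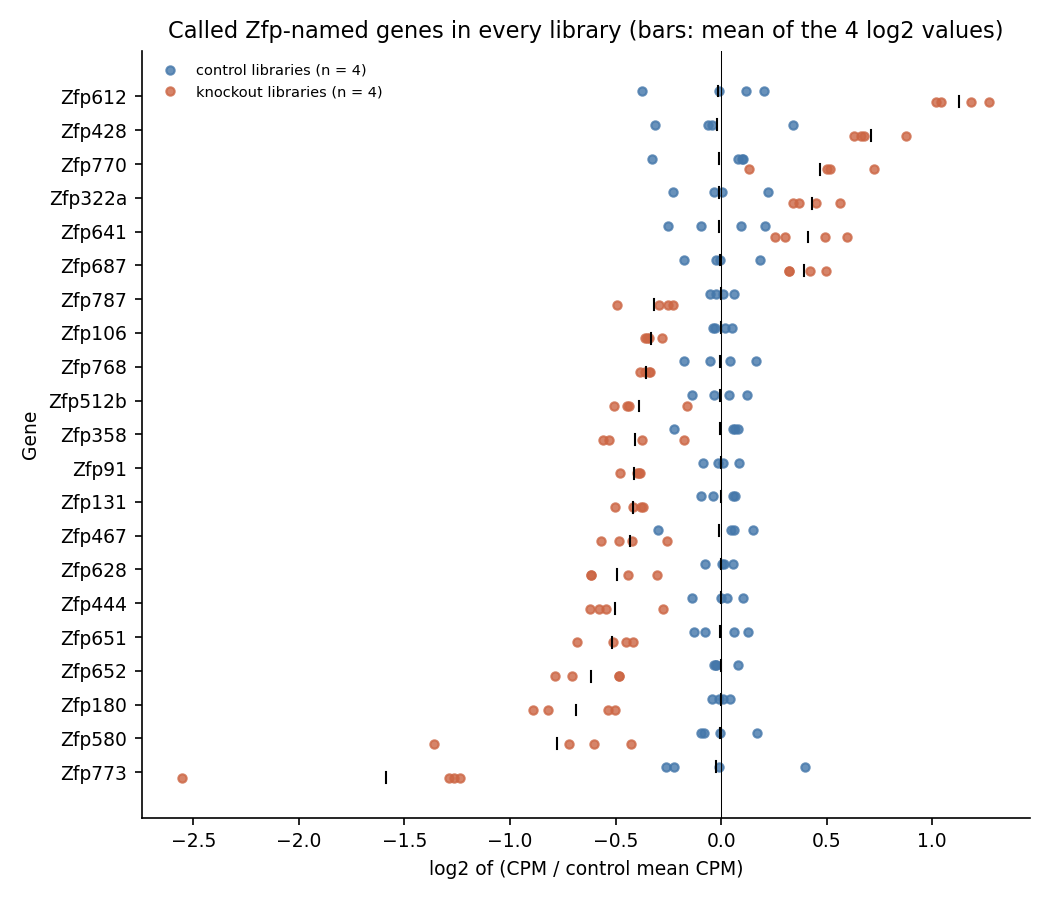
Each row is 1 of the 21 called members, each point 1 library as log2 of its CPM over the control mean CPM, and black bars the mean of 4 log2 values. Zfp612 and Zfp428 are the most shifted upward and Zfp773 the most shifted downward; control and knockout points overlap only for Zfp358 and Zfp467.

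Calls differed in how firmly they held. Zfp612, Zfp428, Zfp652, Zfp651, Zfp773, Zfp91, Zfp180, Zfp106, Zfp768, Zfp131 and Zfp358 were called in all 15 other settings run, which covered 2 other tools, 3 scalings, 2 filters and the removal of each library. Zfp641 was called in 4 of 15, with an adjusted p of up to 0.163: it was lost without control library 1, 2 or 4 or knockout library 3 or 4. Zfp322a (adjusted p up to 0.0838) was lost without control library 1, 3 or 4 or knockout library 2 or 3, Zfp687 (up to 0.124) without control library 1, 3 or 4 or knockout library 2 or 4, and Zfp770 (up to 0.12) without control library 2 or knockout library 2, 3 or 4. Among the lower members, Zfp467 (up to 0.084) was lost without control library 1 or 3 or knockout library 1, 2 or 4, Zfp580 (up to 0.112) without control library 2 or 3 or knockout library 3 or 4, and Zfp787 (up to 0.126) without control library 1 or 4 or knockout library 2. Zfp444 (up to 0.11) was lost without control library 2, 3 or 4, Zfp512b (up to 0.126) and Zfp628 (up to 0.117) without control library 1, 3 or 4, and all 3 without knockout library 2, 3 or 4. Apart from Zfp467, all of these were also lost with DESeq2. The direction of all 21 was the same in these settings.

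A list of genes with a described function held 37 tested members, of which 1 was called higher and 3 lower (10.8%, beside 15.7% of all tested genes), with a median log2 difference of -0.13. The called genes were Zfp687, Zfp91, Zfp106 and Zfp467. Zfp292, a transcription factor with 14 fingers, was at 59.4 ± 6.27 CPM in controls and 58.0 ± 3.94 CPM in knockouts (SD, n = 4), and Zfp207, a spindle protein that loads Bub3, at 55.9 ± 6.70 and 59.7 ± 4.61 CPM. Neither passed the test. The factors of large ribosomal subunit assembly, Zfp622 and Zfp593, differed by -0.02 (SE 0.11) and 0.25 (SE 0.11). Without control library 2, Zfp593 passed the test with an adjusted p of 0.0337. Zfp445, the imprinting regulator, measured 54.5, 53.9, 57.9 and 58.0 CPM in controls and 59.7, 62.0, 60.7 and 59.3 CPM in knockouts. Its groups did not overlap, yet the log2 difference of 0.11 (SE 0.09, edgeR adjusted p = 0.458) did not pass the test. Zfp638, which takes part in silencing of unintegrated retroviral DNA and whose 3′ end matches 52 other annotated genes, differed by 0.21 (SE 0.10). Zfp644, a partner of the methyltransferases Ehmt1 and Ehmt2, differed by -0.05 (SE 0.11), and the corepressor Zfp703 by -0.15 (SE 0.11). Zfp148 differed by -0.25 (SE 0.12), Zfp318, required for IgD expression in B cells, by 0.11 (SE 0.10), and Zfp706, whose 3′ end matches 12 other genes, by 0.00 (SE 0.11). Zfp219, a Sox9 partner in cartilage, was at 31.1 ± 2.63 and 24.9 ± 2.84 CPM (SD, n = 4; log2 -0.32, edgeR adjusted p = 0.0658), and passed only with library totals alone or without knockout library 1, where its adjusted p reached 0.0296 at the lowest.

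Levels and calls were also counted by protein class. A KRAB domain was found in 97 members by a sequence profile, and 116 had no match. KRAB members had a median of 12 fingers and 5.53 CPM, those without a match 7 fingers and 10.8 CPM. Finger number over all members had a median of 9 and reached 36, and 5 members had no C2H2 match: Zfp36 (a CCCH protein that binds AU-rich mRNA), Zfp330, Zfp503, Zfp703 and Zfp839. Of Zfp-named genes under 80 reads with a protein, 145 of 178 (81.5%) had a KRAB domain, against 45.5% of members. Transcript ends were compared with those of other genes for members only, and the handling of multiply mapping reads is not given. For genes under 80 reads, low expression and reads lost between near copies therefore cannot be told apart.

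Among 96 tested KRAB members, 3 were called (3.13%): Zfp612 and Zfp641 higher and Zfp773 lower, with a median log2 difference of 0.02. The profile was adopted after calls by class had been seen, and with either letter pattern for the domain, which misses these 3 genes, the edgeR count was 0. Among the 116 without a KRAB match, 18 were called (15.5%), 4 higher and 14 lower, with a median of -0.10. These shares stand beside 15.7% of all tested genes, and the difference between the classes was not tested. By direction, 12.1% of members without a KRAB match were called lower and 3.45% higher, beside 6.8% and 8.87% of all tested genes. Levels differed as well, so the classes are also given at like level. Of all tested genes, 7.89% were called under 5 CPM, 11.6% from 5 to 20 CPM and 23.3% at 20 CPM or more. From 5 to 20 CPM, 2 of 47 KRAB members were called, both higher, with a median log2 difference of 0.12, and 6 of 56 without a match, 1 higher and 5 lower, with a median of -0.14. Under 5 CPM, 1 of 44 KRAB members was called, Zfp773, with a median of -0.11, and of the 23 without a match edgeR called 0, with 1 at an unadjusted p under 0.05 and a median of -0.07. At 20 CPM or more the log2 differences of the 5 KRAB members ran from -0.34 to 0.11, and of the 37 without a match 12 were called, 3 higher and 9 lower. Those are 8.11% and 24.3%, beside 11.4% and 11.9% of all tested genes at that level. By finger number, 8 of 50 members with 1 to 5 fingers were called, 9 of 66 with 6 to 10 and 4 of 91 with 11 or more. In that order the groups had median levels of 9.35, 9.61 and 5.99 CPM and median SEs of 0.17, 0.18 and 0.23. Of all tested genes 15.7% were called, and the difference by finger number was not tested. Without a KRAB match, DESeq2 called 9 members lower and 1 higher.

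Summed over genes, members without a KRAB match were lower in every knockout library. KRAB members together gave 755 to 776 CPM in the control libraries and 771 to 819 CPM in the knockouts, and the groups overlapped. Members without a KRAB match, leaving out Zfp106, gave 2593 to 2729 CPM in controls and 2328 to 2395 CPM in knockouts, with no overlap. All members together gave 4300 to 4385 CPM and 3878 to 3914 CPM. Without Zfp106 the totals were 3365 to 3488 and 3133 to 3197 CPM, so the lower total was not that gene's alone. Sums are carried by the abundant genes, and no test was made of them.

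**Figure D3:**
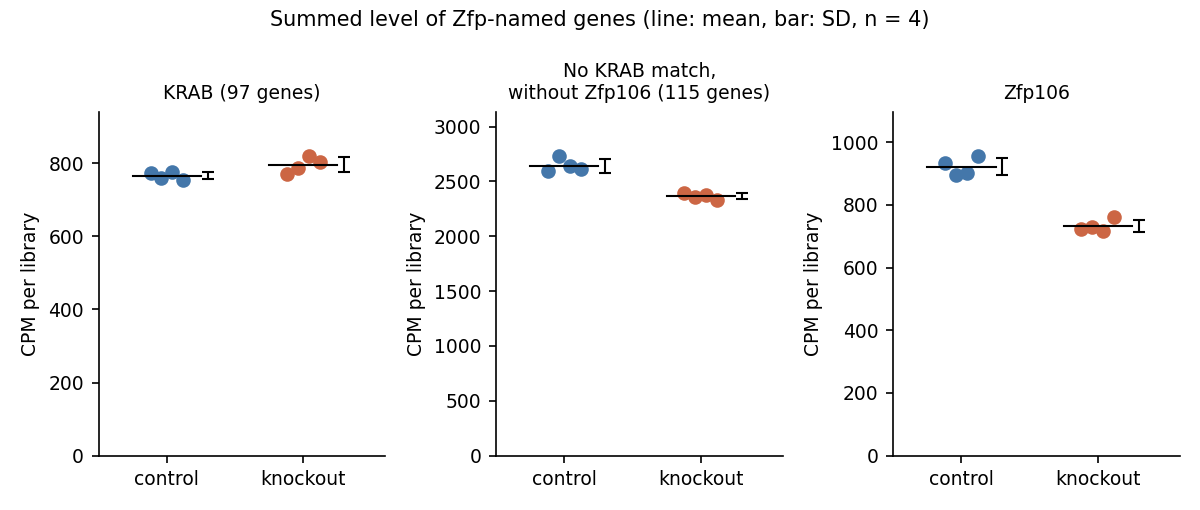
CPM per library, summed over the 97 KRAB members (left), summed over the 115 members without a KRAB match other than Zfp106 (middle), and of Zfp106 (right), with points for libraries, lines for means and bars for SD (n = 4 per group). The groups overlap at left (755 to 776 and 771 to 819 CPM) and are apart in the middle (2593 to 2729 and 2328 to 2395 CPM) and at right.

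The corepressors that KRAB proteins recruit, with genes that act beside them, formed a list of 31 tested genes. Of these 1 was higher and 2 lower (9.68% called, beside 15.7% of all tested genes), with a median log2 difference of -0.08. Trim28 was at 23.2 ± 4.06 CPM in controls and 22.0 ± 2.56 CPM in knockouts (SD, n = 4; log2 -0.08, SE 0.14), and Setdb1 at 3.15 ± 1.12 and 3.78 ± 0.772 CPM (log2 0.27, SE 0.29). Neither passed the test. The NuRD subunits Mbd3 and Gatad2b were lower, from 54.5 to 33.6 CPM (log2 -0.70, SE 0.10) and from 78.5 to 65.6 CPM (log2 -0.26, SE 0.09). Atf7ip, the partner that stabilises Setdb1, was higher, from 41.0 to 61.0 CPM (log2 0.57, SE 0.11).

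Related families, taken by symbol with the same read minimum, are given side by side. Of 26 Zbtb genes 4 were called (15.4%), all lower, with a median log2 difference of -0.16. Of all tested genes 15.7% were called in either direction and 6.8% were called lower. None of the 13 Zscan and Zkscan genes was called by edgeR, with 1 at an unadjusted p under 0.05 and a median of -0.20, and none of the 13 Klf genes, with 2 at an unadjusted p under 0.05 and a median of -0.12. DESeq2 and limma voom called none of them either. Differences between these families and the Zfp-named genes were not tested. The Zbtb count was 2 without control library 4, the Zscan and Zkscan count 1 without control library 4 or knockout library 2, and the Klf count 1 without knockout library 1.

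Joining annotated Zfp-named genes whose starts lay within 500 kb gave 33 clusters of at least 3 genes, with 238 genes, of which 116 were members. In 4 clusters no gene reached 80 reads. In large KRAB clusters many genes stayed under 80 reads: that on chromosome 4 from 145.51 Mb held 18 genes and 1 member, Zfp933, that on chromosome 13 from 67.04 Mb 23 genes and 9 members, and that on chromosome 17 from 21.01 Mb 23 genes and 10 members. Within clusters 9 of 115 tested members were called (7.83%), 1 higher and 8 lower. Outside them it was 12 of 97 (12.4%), 5 higher and 7 lower, beside 15.7% of all tested genes. Members in clusters were also of lower level, with a median of 6.10 CPM and a median SE of 0.23, against 10.4 CPM and 0.17 outside. The difference by location was not tested. The 9 calls fell in 6 clusters. Joining at 250 kb or 1000 kb gave 31 and 32 clusters, with 8 and 9 calls.

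Chromosome 7 held 53 members, 7 of them called lower and 1 higher. Its first 12 members, chr7:4915217-7209998, lie in 3 clusters and included 5 called lower, Zfp628, Zfp580, Zfp787, Zfp444 and Zfp773, whose promoters are printed above. The log2 difference was below 0 for 11 of the 12, with a median of -0.27. The uncalled ones were Zfp579 (-0.18), Zfp524 (-0.14), Zfp865 (-0.11), Zfp784 (0.16), Zfp667 (-0.13), Zfp954 (-0.62) and Zfp772 (-0.23). The 10 other tested genes in the stretch had 2 called lower, Epn1 (log2 -0.38) and Gm15510 (log2 -0.60), with 8 below 0 and a median of -0.24. Gm15510 overlaps Zfp580, and since reads of that pair cannot be told apart, its call is not separate from that of Zfp580. With 500 kb to each side, the first of its 3 clusters had 18 neighbours tested, 2 higher (Isoc2b and Isoc2a, log2 0.62 and 0.34) and the same 2 lower. Among the 41 members elsewhere on chromosome 7, 3 were called (7.32%), and among 159 on other chromosomes 13 (8.18%), beside 41.7% of the first 12. Of all tested genes 15.7% were called and 6.8% were called lower, so both comparison groups lay below the share of all genes called. The stretch was chosen after its values were seen, and its count is the least steady: it was 1 with DESeq2 (Zfp773), 3 with no filter, 3 without control library 1, 2 or 3 or knockout library 4, and 2 without control library 4 or knockout library 2 or 3.

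**Figure D4:**
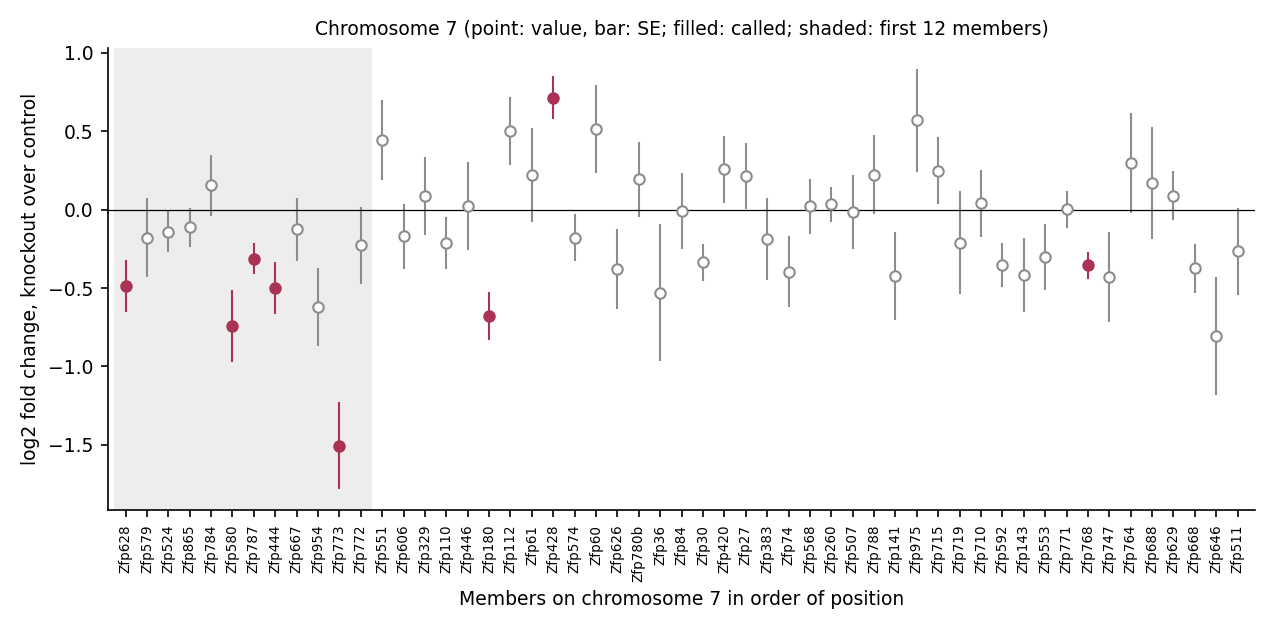
The 53 members on chromosome 7 in order of position (not to scale), each with its log2 fold change of knockout over control and SE, filled where called; the shaded area holds the first 12. In it 11 of 12 values lie below 0 and 5 are called lower, and further along Zfp180 and Zfp428 are called in opposite directions.

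Neighbours could move in opposite directions. In the chromosome 7 cluster from 24.08 to 25.23 Mb, which holds 14 Zfp-named genes and 5 members, Zfp180 was lower and Zfp428 higher. Between and beside them, Zfp112 differed by 0.50 (SE 0.22), Zfp61 by 0.22 (SE 0.30) and Zfp574 by -0.18 (SE 0.15), none called. Of 24 other tested genes in and around it 3 were lower and none higher. Zfp768 was the single call among 9 members near the far end of chromosome 7, and Zfp467 the single call among 7 members on chromosome 6.

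Counting can blur such clusters where their genes are near copies. The last 300 bases of 28 members matched another gene at 95% identity or more over at least 100 bases, and for 11 of these another Zfp-named or Rslcan gene was among the matches, as with Zfp729a, Zfp729b and Zfp738, or Zfp874a and Zfp874b. Of the called members only Zfp773 and Zfp131 had such a match, in neither case to another Zfp-named gene. Values of members with a match are uncertain where reads could be split between copies.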

How the data were processed

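Quadriceps RNA was measured by QuantSeq 3′ mRNA sequencing (forward kit), per the labels' protocols. The authors deposited raw read counts per gene, 1 table per library, without normalization, per the file headers. Per the submitters' processing notes, reads were handled with Bowtie2 2.3.4.1 and with featureCounts of Subread (listed with version 1.6.2) on GRCm38, also listed as mm10. Annotation release, strand setting and handling of multiply mapping reads: not given in the sources used here. Depth was 4404116 to 5405999 reads, so 3 reads amount to 0.555 to 0.681 CPM. Groups came from the genotype labels; library numbers follow accession order and pair nothing. No pair of libraries agreed within counting noise.

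The test was edgeR 4.0.16 (quasi-likelihood, robust, trimmed mean of M values, filterByExpr with a minimum count of 10 and total of 15), with Benjamini-Hochberg adjustment over all 10691 genes tested and a threshold of 0.05. Zfp748 did not pass the filter. Symbols, positions and coding sequences came from GENCODE M21 (54495 of 54532 genes matched). Fingers were counted by the C2H2 letter pattern in the longest translated isoform of each gene. KRAB domains were searched in every coding isoform, so finger number and KRAB class of a gene can rest on different isoforms. KRAB domains were found with HMMER 3.4 (E-value at most 1e-05), using a profile of 42 residues trained on 141 Zfp-named proteins. This profile replaced a letter pattern after the calls by class had been seen, and GENCODE translations replaced the RefSeq proteins first planned. Transcript ends were compared with BLAST 2.17.0.

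Members and lists were chosen with earlier results of these data known. Named genes are all called members, the 6 of highest CPM, up to 14 of a list with described roles, genes next to the read minimum and members of clusters with at least 2 calls. Zfp954, Zfp772 and cluster examples were added after their values were seen. Alternatives were DESeq2 1.42.0, limma 3.58.1 with voom, other scalings and filters, leaving out each library, read minimums of 40 and 160, other joining distances and other KRAB patterns.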

Additional observations from a re-analysis of the deposited data

Results flagged for a closer look

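In 88 groups of 4 libraries, 6 held a library far from the other 3 (gap to the nearest over the group's range above Dixon's critical value). The groups came from the members picked by the rules for named genes, without Zfp954, Zfp772 and the examples added later. Chance flags about 1 in 20 groups. Zfp770 was at 12.3 CPM in control library 2, against 16.3 to 16.6 CPM in the other controls, and its call was lost without that library. Zfp358 was at 54.2 CPM in control library 4, against 65.8 to 66.8 CPM. In the same library Zfp652 was at 125 CPM, against 116 to 117 CPM. Zfp773 was at 1.11 CPM in knockout library 3, against 2.66 to 2.76 CPM in the other knockouts. Zfp91 was at 179 CPM in knockout library 4, against 190 to 192 CPM. Zfp61 was at 3.75 CPM in knockout library 1, against 2.66 to 2.78 CPM. The calls of Zfp358, Zfp652, Zfp773 and Zfp91 were kept when the library in question was left out.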

How the results depend on the processing

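Called members numbered 6 higher and 15 lower, 2 and 10 with DESeq2, 4 and 12 with no filter, and 3 to 7 and 11 to 17 when a library was left out. Read minimums of 40 and 160 gave the same counts. The higher minimum could not remove a call, since Zfp773, the called member of lowest level, had 174 reads. The lower one adds only genes that also pass the filter of the test, which Zfp235 with 78 reads did not. DESeq2 called, of members without a KRAB match, 9 lower and 1 higher, and of the first 12 members of chromosome 7, 1 lower (3 with no filter). Leaving out a library gave 9 to 16 lower and 2 to 5 higher calls without a KRAB match, 2 to 5 lower at the start of chromosome 7, 2 to 5 Zbtb calls, and 0 to 1 for Zscan with Zkscan and for Klf. The member median log2 difference was -0.062 with library totals alone and -0.059 to -0.024 when a library was left out. For all tested genes the median was -0.030 with library totals alone and -0.0088 to 0.0088 when a library was left out. A stricter KRAB letter pattern called 0 KRAB members with edgeR (2 at an unadjusted p under 0.05), and the looser letter pattern, tried after seeing the data, also 0, since neither finds the domain in Zfp612, Zfp641 or Zfp773.

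Some uncalled genes changed sign around 0, among them Zfp422, which lies under the read minimum. With DESeq2, RLE, upper quartile, library totals, voom and no filter, Zfp706 gave -0.0091, -0.0091, -0.013, -0.037, -0.00011 and -0.015, and Zfp771 -0.011, -0.010, -0.014, -0.034, -0.00053 and -0.017. Zfp422 gave -0.0057 with library totals and -0.016 with voom, and Zfp449 -0.010 with library totals. When a library was left out, log2 differences ran from -0.18 to 0.13 for Zfp422, -0.11 to 0.19 for Zfp449, -0.11 to 0.026 for Zfp622, -0.11 to 0.030 for Zfp644, -0.27 to 0.022 for Zfp667, -0.055 to 0.023 for Zfp706 and -0.094 to 0.10 for Zfp771. Members under 5 CPM, with a median SE of 0.29, limit what could be detected. No paired analysis was possible because the labels share no replicate number between the groups.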
